A study of Mus musculus with 12 samples.

Results

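The genes described here belong to the regulated secretory pathway, as granins or as proteins that turn prohormones into hormones, and were followed in bulk RNA sequencing of mouse pituitary. The 10 members were chosen by gene symbol, and all 10 were found among the 55421 gene IDs of the deposited tables. They are the granins Chga, Chgb, Scg2, Scg3 and Vgf, the convertase partners Scg5 and Pcsk1n, and the enzymes Pcsk1, Cpe and Pam. All 10 passed the filter on low counts.

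The study sequenced 12 libraries in 4 groups of 3. All mice were C57BL/6 with a floxed Gpr101 gene, which codes for a G protein-coupled receptor, and received an adeno-associated virus (AAV) and AA14 or its vehicle for 1 week. The ctrl_vehicle and ctrl_AA14 groups have the genotype Cga-ctrlAAVGpr101fl/fl, a control virus, and the cre_vehicle and cre_AA14 groups have Cga-creAAVGpr101fl/fl, a virus with cre recombinase that cuts out floxed sequence. Mice of ctrl_AA14 and cre_AA14 received AA14, described in the labels only as a ligand, and the other groups received control vehicle. The Cga prefix is the symbol of the glycoprotein hormone alpha subunit gene, and the sources used here do not say more about the promoter, or give age or sex. They also do not say whether each library came from a separate mouse, so each p-value reflects the spread from library to library, which may be technical. Whole pituitaries were dispersed, so fewer cells of a type and less RNA per cell cannot be told apart in any value below.

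Endocrine cells make peptide hormones as larger precursors. These are packed with granins into dense-core granules, cut at pairs of basic residues by prohormone convertases, trimmed at the carboxyl end by carboxypeptidase E and, for some peptides, amidated by peptidylglycine alpha-amidating monooxygenase. In the pituitary this route is best known from proopiomelanocortin (Pomc), which convertase 1/3 (Pcsk1) cuts to adrenocorticotropin in corticotrophs and convertase 2 (Pcsk2) cuts further in melanotrophs. Granins are abundant in gonadotrophs and other hormone cells and are widely used as markers of neuroendocrine tissue.

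Several members are textbook examples of genes driven through the cyclic AMP response element, so the 250 bases before the annotated start were read for the 8 members that have an entry in a RefSeq promoter table of build GRCm38.p6 (Chga, Chgb, Scg2, Scg3, Scg5, Pcsk1n, Pcsk1 and Pam). Both strands were searched for the full element TGACGTCA and for its half-site TGACG, which is also contained in the full element. The full element stood in the windows of Chgb, Scg2 and Pcsk1, 3 of these 8 members, against 1.55% of 32851 windows of the same length over all genes. A half-site stood in 6 of the 8, against 17.8% of all windows, and neither form stood in those of Pcsk1n and Pam. The 5 windows below are shown to compare the 3 that hold the full element (Scg2, Pcsk1 and Chgb) with 1 that holds only a half-site (Chga) and 1 that holds neither form (Pcsk1n). They are written 5′ to 3′ on the strand of the gene, with matches in capitals, and end at the base before the RefSeq start. The Scg2 window is chr1:79440027-79440276 (minus strand), that of Pcsk1 chr13:75089607-75089856 (plus), of Chgb chr2:132781392-132781641 (plus), of Chga chr12:102554691-102554940 (plus) and of Pcsk1n chrX:7919572-7919821 (plus).
Scg2: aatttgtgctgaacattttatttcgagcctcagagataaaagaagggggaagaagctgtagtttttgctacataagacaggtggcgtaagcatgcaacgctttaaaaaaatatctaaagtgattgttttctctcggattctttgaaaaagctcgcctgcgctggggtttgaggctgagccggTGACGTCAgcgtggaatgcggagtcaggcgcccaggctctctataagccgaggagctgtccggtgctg
Pcsk1: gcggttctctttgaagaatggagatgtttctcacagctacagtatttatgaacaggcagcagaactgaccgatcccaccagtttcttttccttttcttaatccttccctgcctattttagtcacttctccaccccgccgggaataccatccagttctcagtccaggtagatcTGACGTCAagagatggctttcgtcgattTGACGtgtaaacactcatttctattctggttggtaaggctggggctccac
Chgb: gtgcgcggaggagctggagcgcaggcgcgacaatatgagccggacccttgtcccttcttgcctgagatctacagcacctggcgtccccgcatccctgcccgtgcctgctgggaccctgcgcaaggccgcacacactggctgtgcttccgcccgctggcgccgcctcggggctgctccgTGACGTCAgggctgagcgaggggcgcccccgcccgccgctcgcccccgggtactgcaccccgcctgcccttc
Chga: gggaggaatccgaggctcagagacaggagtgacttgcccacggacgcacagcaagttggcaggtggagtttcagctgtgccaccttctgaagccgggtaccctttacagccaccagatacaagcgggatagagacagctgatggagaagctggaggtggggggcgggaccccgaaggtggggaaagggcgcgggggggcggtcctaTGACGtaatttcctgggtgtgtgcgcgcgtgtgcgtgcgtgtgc
Pcsk1n: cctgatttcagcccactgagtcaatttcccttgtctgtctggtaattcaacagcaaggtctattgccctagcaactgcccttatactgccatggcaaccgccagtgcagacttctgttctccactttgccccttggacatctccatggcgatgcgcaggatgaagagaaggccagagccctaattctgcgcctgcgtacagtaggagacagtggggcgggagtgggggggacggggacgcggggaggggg
The full element began 68 bases before the start of Scg2, 72 before that of Chgb and 78 before that of Pcsk1, which has a further half-site 50 bases before its start. Chga has a half-site 44 bases before its start. RefSeq and the GENCODE annotation used for gene positions place some starts differently: the Chgb window lies wholly inside the GENCODE gene, and those of Scg2 and Pcsk1 partly. A match is a description of these letters and does not show that a factor binds there or bears on any value below.

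Totals ranged from 48693682 to 73388221 counts per library, and the 10 members took between 0.966% and 1.63% of a library. Levels are in CPM, counts as a share of the library size after scaling with TMM factors. The pituitary hormone transcripts Gh, Prl and Pomc were at 11580 CPM or more in all 12 libraries. Of the listed markers of the adrenal chromaffin cell, another cell rich in granins, Pnmt (at most 0.202 CPM) and Dbh (at most 1.66 CPM) were near 0. Th, also on that list, was at 1.4 to 15.55 CPM and highest in ctrl_vehicle 3. The libraries also fell into 2 sets that do not follow the groups. Malat1, a nuclear noncoding RNA, was at 1105 to 1560.4 CPM in the 3 ctrl_AA14 libraries, cre_vehicle 1 and cre_AA14 2, and at 199 to 549 CPM in the other 7. These are called the Malat1-rich and Malat1-poor libraries here. In control-virus mice this split is the same as the treatment, so the 2 cannot be told apart there. Myelin genes were high in ctrl_vehicle 3, cre_vehicle 2 and ctrl_AA14 1 (the oligodendrocyte list summed to 2287, 3233 and 721 CPM, against 54.9 to 441 CPM elsewhere).

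Compared per kilobase of exon, Scg2 (secretogranin II, ENSMUSG00000050711, chromosome 1, 79434669 to 79440120, GRCm38) was the most abundant member. Its level was 1696 ± 237 CPM per kb (SD over 12 libraries), followed by Chgb (chromogranin B, chromosome 2) at 1047 ± 227 and Scg5 (the 7B2 protein, which helps convertase 2 to fold, chromosome 2) at 689.9 ± 113 CPM per kb. Cpe (chromosome 8) at 412 ± 141, Pcsk1n (proSAAS, an inhibitor of convertase 1/3, ENSMUSG00000039278, chromosome X, 7919822 to 7924410) at 366 ± 189.8 and Chga (chromogranin A, chromosome 12) at 250.4 ± 115 CPM per kb came next. Lower still were Scg3 (chromosome 9) at 95.1 ± 13.2, Pcsk1 (ENSMUSG00000021587, chromosome 13, 75089826 to 75134861) at 53.7 ± 13.1, Pam (chromosome 1) at 39.8 ± 6.22 and Vgf (chromosome 5) at 6.08 ± 8.80 CPM per kb. Neighbours in this order differed by more than the larger of their SDs except Cpe and Pcsk1n, which differed in the stated direction in 8 of 12 libraries, and Pcsk1n and Chga, in 11 of 12. Pcsk1 and Pam were only just past their larger SD (13.97 against 13.07 CPM per kb) and kept this order in 9 of 12 libraries. Convertase 2 (Pcsk2), which is no member, lay beside Pcsk1 on this scale, at 56.6 ± 21.2 CPM per kb. The order depended on the length used, since the merged exons of Pam span 11892 bp and its longest transcript 4102 bp. Per kilobase of the longest transcript, a measure added after seeing the data, Pam was at 115 ± 18.0 CPM per kb, above Scg3 at 109 ± 15.2 and Pcsk1 at 59.7 ± 14.5, and Chga and Pcsk1n were level at 367 ± 169 and 366 ± 189.8. Pcsk2 was then above Pcsk1, at 94.8 ± 35.6 CPM per kb. Chga, Chgb and Scg2 lay above Pcsk1, Pcsk2 and Pam on both scales.

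The members also differed in how much they varied between libraries. On the CPM scale the highest library exceeded the lowest 1.61-fold for Pam, 1.62-fold for Scg3, 1.78-fold for Scg2, 1.96-fold for Chgb and 1.97-fold for Scg5. The span was 2.15-fold for Pcsk1, 3.05-fold for Cpe, 4.33-fold for Chga, 5.48-fold for Pcsk1n and 27.4-fold for Vgf. The plot of each member by library shows these spans and where the Malat1-rich libraries lie.

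**Figure D1:**
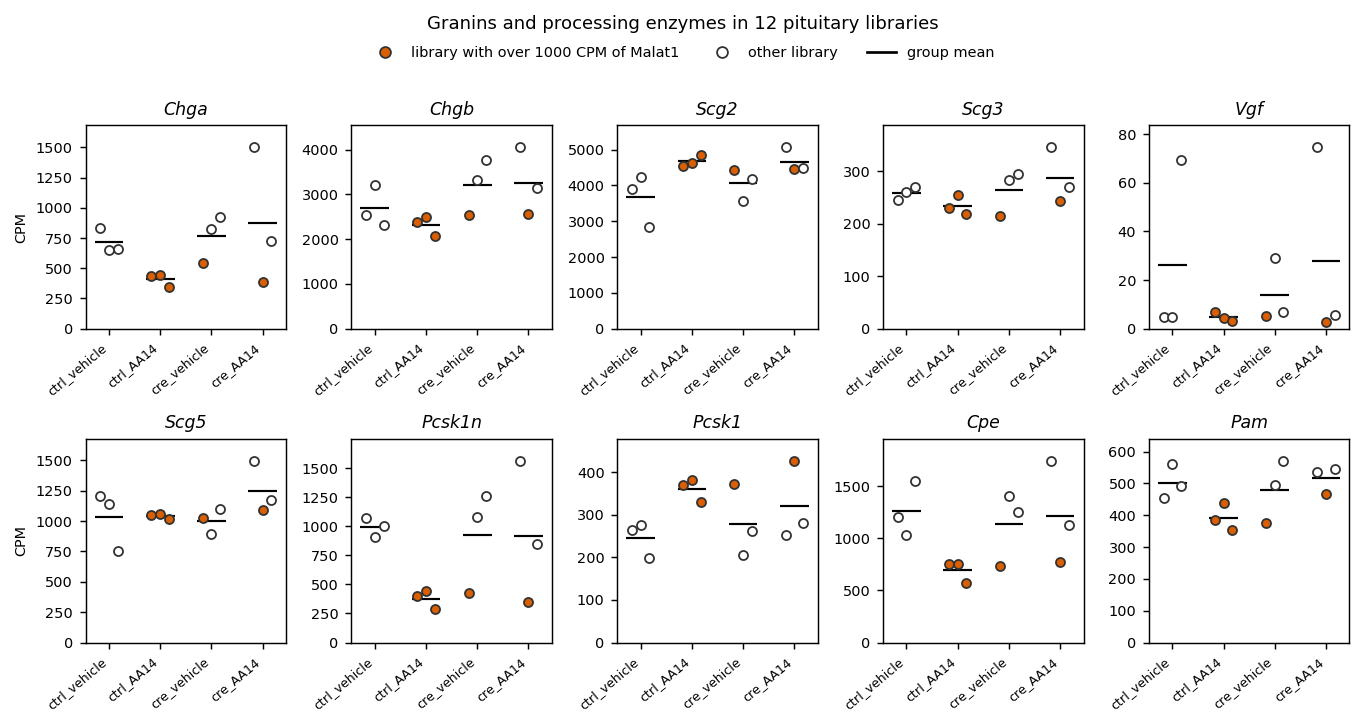
Level of each of the 10 members (vertical axes, CPM from 0) in the 4 groups of 3 libraries. Each point is a library, filled where Malat1 exceeds 1000 CPM, and the line is the group mean. For Chga, Pcsk1n and Cpe the 5 filled points lie below all 7 open points, and for Pcsk1 they lie above.

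Among the granins, Chga, the calcium-binding chromogranin that helps granules to form, was at 832, 654 and 661 CPM in ctrl_vehicle, 434, 445 and 346 in ctrl_AA14, 540.3, 829 and 925 in cre_vehicle, and 1501, 388 and 727 CPM in cre_AA14. All ctrl_AA14 libraries were below all ctrl_vehicle libraries, while the 2 cre groups overlapped. Chgb, its close relative, was at 2547, 3214 and 2319 CPM in ctrl_vehicle, 2377, 2501 and 2069.8 in ctrl_AA14, 2547, 3332 and 3771 in cre_vehicle, and 4054, 2559 and 3147 CPM in cre_AA14. Its AA14 and vehicle libraries overlapped under both viruses.

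Scg2, the precursor of secretoneurin, was at 3906, 4243 and 2845 CPM in ctrl_vehicle, 4555, 4614 and 4837 in ctrl_AA14, 4421, 3575 and 4182 in cre_vehicle, and 5066, 4448 and 4489 CPM in cre_AA14. It was the one member whose AA14 libraries were all above the vehicle libraries under each virus, by a narrow margin in cre-virus mice (4448 against 4421 CPM). The lowest value came from ctrl_vehicle 3, one of the libraries rich in myelin genes. Scg3, which binds Chga and granule cholesterol, was at 244, 261 and 270.5 CPM in ctrl_vehicle, 230.0, 255 and 218 in ctrl_AA14, 213, 282 and 293 in cre_vehicle, and 345, 243 and 269.8 CPM in cre_AA14. Its groups overlapped in every pair.

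Vgf, the precursor of several neuropeptides, was low in 9 libraries and high in 3. It was at 4.63, 4.65 and 69.3 CPM in ctrl_vehicle, 6.74, 4.21 and 3.10 in ctrl_AA14, 5.14, 29.1 and 6.94 in cre_vehicle, and 74.6, 2.72 and 5.80 CPM in cre_AA14. High values came from ctrl_vehicle 3, cre_vehicle 2 and cre_AA14 1. The first 2 were also the highest for the neurofilament gene Nefl (343 and 297 CPM, against at most 76.5 CPM elsewhere), and ctrl_vehicle 3 was the highest for Avp, the vasopressin transcript, at 293 CPM, with 24.6 CPM or less in the other libraries. The library cre_AA14 1 had the highest Fos, an immediate-early gene, at 662 CPM. Fos did not go with Vgf elsewhere. It was at 232.5 CPM in ctrl_vehicle 1, where Vgf was at 4.63 CPM. In ctrl_vehicle 3 and cre_vehicle 2, with high Vgf, it was at 8.675 and 19.84 CPM. The part of these transcripts' sources in the Vgf values was not tested.

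Of the convertase partners, Pcsk1n was at 1069, 909 and 1006 CPM in ctrl_vehicle, 400.1, 441 and 285 in ctrl_AA14, 423, 1077 and 1265 in cre_vehicle, and 1562, 346 and 849 CPM in cre_AA14. All 3 ctrl_AA14 libraries were below the ctrl_vehicle libraries, and a single library of each cre group was at their level. Scg5 was at 1204, 1139 and 758 CPM in ctrl_vehicle, 1052, 1057 and 1014 in ctrl_AA14, 1025, 889 and 1097 in cre_vehicle, and 1494, 1088 and 1173 CPM in cre_AA14. Its AA14 and vehicle libraries overlapped under both viruses, although it also partners a convertase.

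Of the enzymes, Pcsk1, which makes the first cuts in prohormones, was at 263, 275 and 198 CPM in ctrl_vehicle, 369.8, 381 and 330.2 in ctrl_AA14, 373, 204 and 261 in cre_vehicle, and 253, 426 and 279.9 CPM in cre_AA14. It went the other way from its inhibitor Pcsk1n in control-virus mice, with all ctrl_AA14 libraries above all ctrl_vehicle libraries. Cpe, which removes the basic residues left by the convertases, was at 1199, 1029.8 and 1547 CPM in ctrl_vehicle, 751, 755 and 571 in ctrl_AA14, 737, 1409 and 1249 in cre_vehicle, and 1739, 775 and 1122 CPM in cre_AA14. Pam, which amidates peptides with copper and ascorbate, was at 455, 562 and 491 CPM in ctrl_vehicle, 386, 438 and 354 in ctrl_AA14, 376, 496 and 570.2 in cre_vehicle, and 537, 465 and 544 CPM in cre_AA14. Both were lower in all 3 ctrl_AA14 libraries than in any ctrl_vehicle library. The exons of Pam share 188 bp with B230216N24Rik, a noncoding gene on the same strand. That gene had a mean of 339 counts a library against 30934 for Pam. The exons of Pcsk1n share 135 bp with Eras, on the opposite strand, which had a mean of 0 counts. How reads in these stretches were counted was not checked.

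The first test compared AA14 with vehicle in mice given the control virus. In edgeR's quasi-likelihood test over all genes, 0 of 10 members passed an adjusted p of 0.05, where 1 of 22630 genes did (0.00442%). Pcsk1n had a log2 fold change of -1.41 (SE 0.49, edgeR adjusted p = 0.143), with group means of 995 ± 80.6 and 375 ± 81.0 CPM (SD, n = 3 each). Cpe had -0.86 (SE 0.31, adjusted p = 0.147), from 1259 ± 264 to 692 ± 105 CPM, and Chga had -0.81 (SE 0.39, adjusted p = 0.226), from 716 ± 101 to 409 ± 54.2 CPM. Pam was at -0.36 (SE 0.17, adjusted p = 0.215). In the other direction Pcsk1 was at 0.55 (SE 0.25, adjusted p = 0.202), from 246 ± 41.5 to 360.2 ± 26.5 CPM, and Scg2 at 0.35 (SE 0.15, adjusted p = 0.192), from 3665 ± 729.8 to 4669 ± 149 CPM. The remaining values were -0.22 for Chgb (SE 0.20), -0.14 for Scg3 (SE 0.16), 0.01 for Scg5 (SE 0.18) and -2.48 for Vgf (SE 1.34). The Vgf value rested on ctrl_vehicle 3 and was 0.01 without it.

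At an unadjusted p under 0.05, 2 members were higher (Scg2 and Pcsk1) and 2 lower (Pcsk1n and Cpe), where 8.03% and 15.8% of all genes were. Groups did not overlap for 2 members with higher and 4 with lower values, where 17.6% and 20.1% of all genes showed this. The median log2 fold change was -0.29 over the members and -0.02 over all genes tested, with 3 of 10 members positive, where 49.1% of all genes were. Cell type markers were compared between the same groups. Of 44 listed markers, 7 were higher and 9 lower in all ctrl_AA14 libraries than in any ctrl_vehicle library. Among all genes 17.6% were higher and 20.1% lower in this way, so the marker counts lay near the share over all genes. The somatotroph list summed to 189200 to 242400 CPM against 90700 to 176700. The gonadotroph list summed to 2309 to 2329 CPM against 1238 to 1980, and the thyrotroph list to 519.8 to 658.8 against 223 to 465.7 CPM. In these last lists Lhb, Fshb, Tshb and Trhr were higher without overlap, while Gnrhr, Nr5a1 and Dio2 overlapped between the groups. Nr5a1 was at 26.05 to 31.61 CPM against 31.57 to 40.47. Sox2, a stem cell marker, was at 10.2 to 13.8 CPM against 31.4 to 59.1, and Pax7, a melanotroph marker, at 13.3 to 27.97 against 37.4 to 71.8 CPM. The other listed markers of both cell types overlapped between the groups, and so did the list sums. The stem or folliculostellate list summed to 65.28 to 95.31 CPM against 85.17 to 241.3. The melanotroph list summed to 461.9 to 786.8 CPM against 466.5 to 1147. Lower without overlap were the sums of the macrophage list (70.87 to 97.7 CPM against 107.5 to 155.7) and the endothelial list (54.45 to 76.96 against 94.46 to 113.8). Among their markers C1qa, C1qb, Csf1r and Plvap were lower in this way, and the others overlapped. Avp was at 1.62 to 2.56 CPM against 12.1 to 293, and Oxt at 4.62 to 8.18 against 14.55 to 105. The sum of their posterior lobe and neuron list overlapped. The part of cell composition in the members' values was not tested. DESeq2 called 1 member, Pcsk1n, among 10.2% of all genes, limma-voom with quality weights called Pcsk1n, Pcsk1 and Cpe among 15.1%, and edgeR on the control-virus libraries alone called Chga, Pcsk1n and Cpe among 10.6%. The split by Malat1 coincides with the treatment here. With a term for that split in the model, which the mixed cre groups make estimable, Pcsk1n was at 0.23, Cpe at 0.004, Chga at 0.28 and Pcsk1 at -0.13, each with an edgeR adjusted p of 1.00, and Scg2 was at 0.30.

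**Figure D2:**
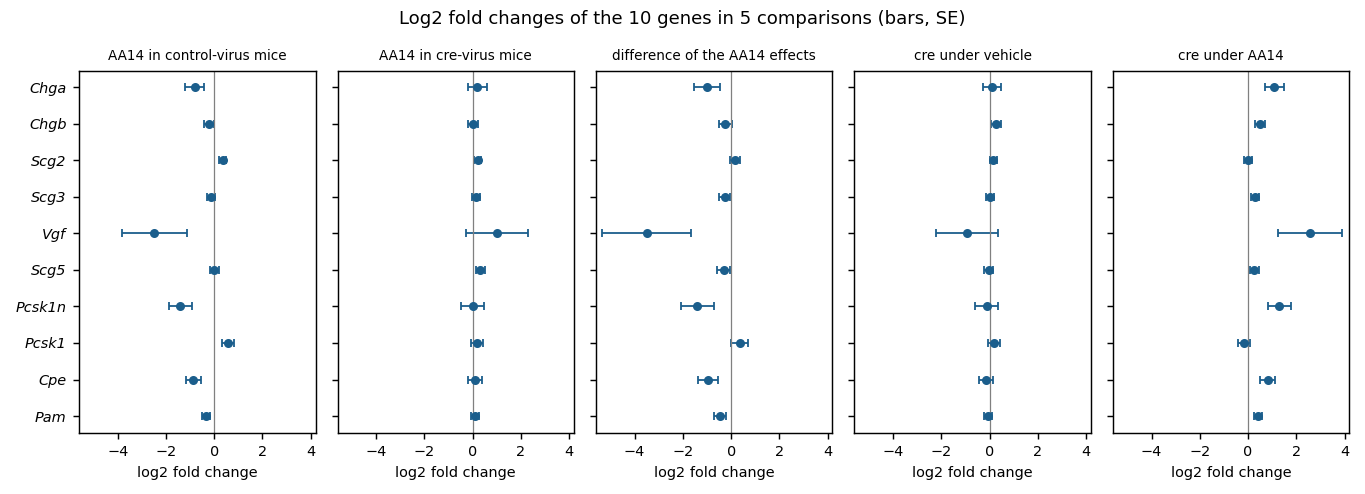
Log2 fold changes (horizontal axes, bars show the SE) of the 10 members in the 5 comparisons, from edgeR over 12 libraries. In control-virus mice Pcsk1n, Cpe and Chga lie at -1.41, -0.86 and -0.81, while in cre-virus mice all members but Vgf lie between -0.004 and 0.32.

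After the cre virus, AA14 and vehicle libraries overlapped for 9 of the 10 members. No member passed in edgeR, nor any of the 22630 genes (0%), and 0 members had an unadjusted p under 0.05, where 1.2% of all genes did with a higher and 1.09% with a lower value. Groups did not overlap for 1 member, Scg2, with higher AA14 values, where 3.32% of all genes were higher and 2.54% lower in this way. DESeq2 (0.0619% of all genes) and limma-voom (0%) also called 0 members. Group means were 922 ± 442 and 919 ± 611 CPM for Pcsk1n, a log2 fold change of -0.004 (SE 0.48), 1132 ± 351 and 1212 ± 488 CPM for Cpe, and 765 ± 200.2 and 872 ± 571 CPM for Chga (n = 3 each). Each cre group holds 1 Malat1-rich library, cre_vehicle 1 and cre_AA14 2, which was the lowest of its group for all 3 genes. Scg2 was at 0.20 (SE 0.15, edgeR adjusted p = 1.00), and Vgf at 1.01 (SE 1.27), or -1.70 without cre_AA14 1. The median over the members was 0.16, against -0.002 over all genes, with 9 of 10 positive, where 49.7% of all genes were. That median turned to -0.12 without cre_AA14 1 and to -0.02 without cre_vehicle 1. In limma-voom with quality weights it was -0.045, and 5 of 10 members had the opposite sign to that in edgeR.

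Whether the AA14 effect depended on the virus was tested as the difference of the 2 effects. Again 0 of 10 members passed in edgeR (1 of 22630 genes did, 0.00442%), and DESeq2 (0.115% of all genes) and limma-voom (0%) called 0. At an unadjusted p under 0.05, 2.17% of all genes were higher and 4.86% lower, and 2 of 10 members had a positive value, where 47.7% of all genes did. Cpe, the 1 member past that level, had a log2 difference of -0.96 (SE 0.43, edgeR adjusted p = 0.631). Pcsk1n had -1.40 (SE 0.68) and Chga -0.998 (SE 0.54), both with an adjusted p of 0.631. Without cre_AA14 1 they were -0.79 for Pcsk1n and -0.36 for Chga. With the Malat1 split as a term the values were 0.29 for Pcsk1n and 0.21 for Chga. A difference between viruses in the AA14 effect was not detectable for these genes with 3 libraries a group.

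The cre virus itself was compared under each treatment. Under vehicle 0 members passed (1 of 22630 genes, 0.00442%), and 0 had an unadjusted p under 0.05, where 0.932% of all genes were higher and 1.06% lower. Groups overlapped for all 10 members, where 2.39% of all genes were higher and 2.53% lower without overlap. DESeq2 (0.084% of all genes), limma-voom (0.00884%) and edgeR on these groups alone (0.00478%) called 0 members. The values ran from -0.93 for Vgf (SE 1.27, and 1.57 without ctrl_vehicle 3) to 0.26 for Chgb (SE 0.20), with a median of -0.008 against -0.02 over all genes and 5 of 10 positive, where 46.2% of all genes were. Under AA14 0 members passed in edgeR (0 of 22630 genes, 0%), DESeq2 (0.15%), limma-voom (0%) or edgeR on these groups alone (0.00472%). There 5 members were higher after cre at an unadjusted p under 0.05, where 7.08% of all genes were, and 0 were lower, where 1.44% were. They were Chga at 1.09 (SE 0.39), Pcsk1n at 1.29 (SE 0.48), Cpe at 0.81 (SE 0.31), Chgb at 0.49 (SE 0.20) and Pam at 0.39 (SE 0.17), each with an edgeR adjusted p of 0.582. Groups did not overlap for 4 members, Chgb, Scg5, Cpe and Pam, all higher after cre, where 7.3% of all genes were higher and 6.76% lower in this way. In all 8 of 10 members had a positive value, where 49.4% of all genes did. This comparison uses the same ctrl_AA14 libraries as the first, so its positive values are not separate evidence. The ctrl_AA14 libraries were all Malat1-rich, and of the cre_AA14 libraries only cre_AA14 2 was. The median over the members was 0.44, and 0.15 with the Malat1 split as a term. Without cre_AA14 1, the library highest in Chga, Chgb, Pcsk1n and Cpe, the values were 0.45 for Chga, 0.68 for Pcsk1n and 0.46 for Cpe.

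Across the 12 libraries 4 members split by Malat1 without overlap, and within groups this could be seen only in the 2 cre groups, which hold 1 Malat1-rich library each. Pcsk1n was at 285 to 441 CPM in the 5 Malat1-rich libraries and 849 to 1562 CPM in the other 7, Cpe at 571 to 775 and 1029.8 to 1739 CPM, and Chga at 346 to 540.3 and 654 to 1501 CPM. Pcsk1 was at 330.2 to 426 CPM in the Malat1-rich libraries and 198 to 279.9 CPM in the others. Over all genes, 13.1% were lower and 9.23% higher in the Malat1-rich libraries without overlap, against 3 and 1 of the 10 members. The other 6 members overlapped between the sets.

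Ratios of functional partners within a library do not depend on how libraries are scaled. They were not corrected for the share of G and C bases (GC content), described below, which is 57.3% for Pcsk1n and 40.6% for Pcsk1. A trend with GC content that differs by library would remain in them. The CPM ratio of the inhibitor Pcsk1n to its target Pcsk1 was 4.06, 3.30 and 5.08 in ctrl_vehicle, 1.08, 1.16 and 0.863 in ctrl_AA14, 1.14, 5.27 and 4.86 in cre_vehicle, and 6.17, 0.813 and 3.03 in cre_AA14. It was thus 0.813 to 1.16 in the Malat1-rich and 3.03 to 6.17 in the Malat1-poor libraries, with no value between. Between 6 AA14 and 6 vehicle libraries the mean log2 ratio differed by -1.15 (exact two-sided permutation p = 0.0887, Benjamini-Hochberg p = 0.266 over 3 ratios), with -1.99 under the control virus and -0.31 under the cre virus. Without the 5 Malat1-rich libraries, a choice made after seeing the data, the difference was -0.04 (exact permutation p = 0.952, 2 AA14 against 5 vehicle libraries). It was -1.54 (exact permutation p = 0.0195) without cre_AA14 1 and -1.48 (exact permutation p = 0.0368) without cre_vehicle 1, before adjustment.

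The ratio of the chaperone Scg5 to Pcsk2, the convertase it serves, ran from 1.74 to 3.97, with both sets of libraries spread over most of that range. Its log2 difference between AA14 and vehicle was 0.12 (exact permutation p = 0.615, adjusted 0.615). The ratio of Chga to Chgb was 0.327, 0.203 and 0.285 in ctrl_vehicle, 0.183, 0.178 and 0.167 in ctrl_AA14, 0.212, 0.249 and 0.245 in cre_vehicle, and 0.370, 0.151 and 0.231 in cre_AA14. Its log2 difference was -0.30 (exact permutation p = 0.199, adjusted 0.299), which was -0.60 under the control virus and 0.0005 under the cre virus. Without cre_AA14 1 it was -0.47 (exact permutation p = 0.0130 before adjustment). The ratio of Chga to Chgb was 0.151 to 0.212 in the Malat1-rich and 0.203 to 0.370 in the Malat1-poor libraries. Without the Malat1-rich libraries its log2 difference between AA14 and vehicle was positive, as given below.

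**Figure D3:**
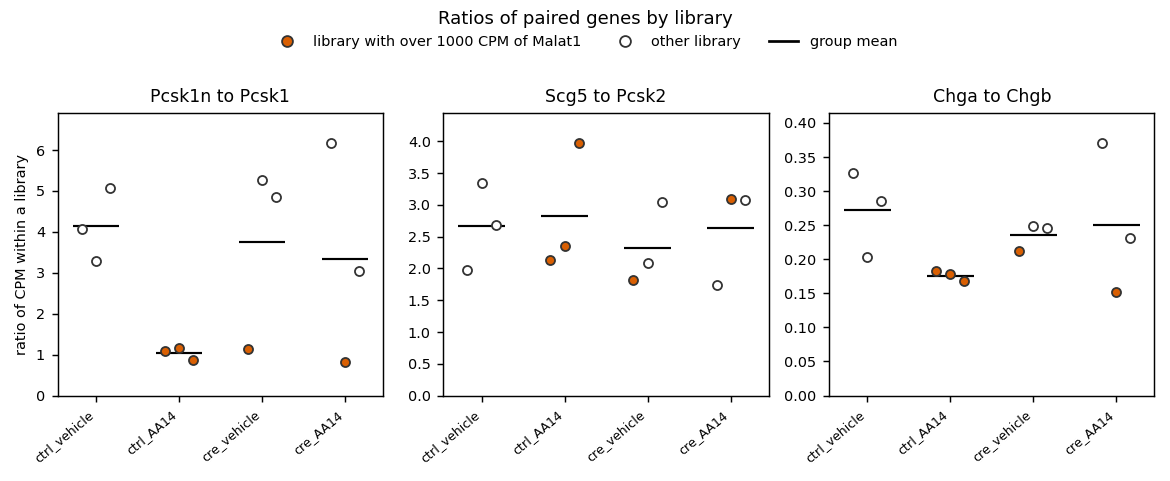
Ratio of CPM within each library (vertical axes from 0) for 3 pairs of members or partners, by group. Filled points are libraries with over 1000 CPM of Malat1 and lines are group means. The Pcsk1n to Pcsk1 ratio lies between 0.813 and 1.16 in the filled points and between 3.03 and 6.17 in the open ones, while Scg5 to Pcsk2 is mixed.

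Base composition of the transcripts, which was not used to choose the members, was higher in members with more negative values in control-virus mice. GC content of the longest annotated transcript was 40.6% for Pcsk1, 46.5% for Scg3, 46.8% for Scg2 and 48.1% for Scg5, 49.7% for Cpe, 49.9% for Pam and 53.9% for Chgb, and 57.3% for Pcsk1n, 58.4% for Chga and 64.1% for Vgf. The median of all genes tested was 49.4%. Across the 10 members, which share the same 6 libraries, GC content and the log2 fold change for AA14 in control-virus mice were related with r = -0.90 (Pearson) and rho = -0.85 (Spearman), given as a description. With ctrl_vehicle 3 left out, on which the Vgf value rests, they were r = -0.51 and rho = -0.58, and with Vgf left out r = -0.82 and rho = -0.80 over 9 members, both added after seeing the data. Cpe lay off this order, with an average GC content and a log2 fold change of -0.86. With a GC trend removed from each library, the values were -1.03 for Pcsk1n, -0.80 for Cpe, -0.37 for Chga and 0.31 for Pcsk1, and 0 members passed. In control-virus mice a GC trend that differs by library and the treatment cannot be told apart. For AA14 in cre-virus mice GC content and log2 fold change gave r = 0.49 and rho = -0.13. For cre under vehicle they gave r = -0.64 and rho = -0.44. For cre under AA14 they gave r = 0.92 and rho = 0.92, and for the difference of the AA14 effects r = -0.86 and rho = -0.83. The last 2 comparisons use the same ctrl_AA14 libraries.

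**Figure D4:**
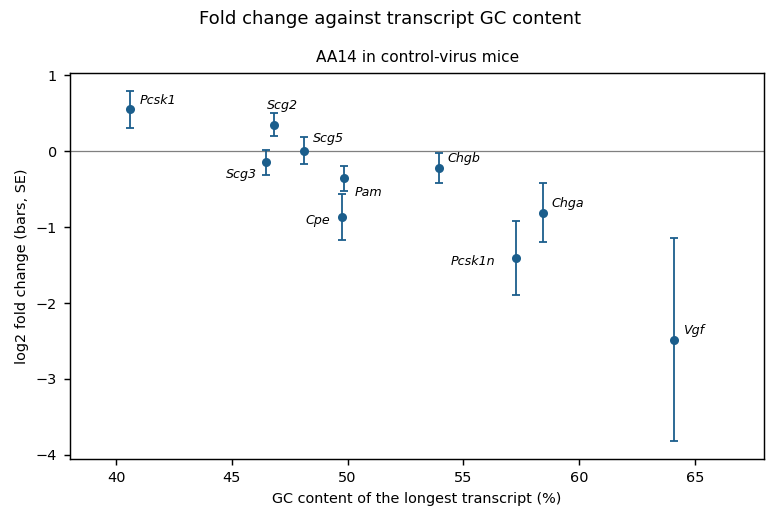
Log2 fold change of each member for AA14 in control-virus mice (vertical axis, bars show the SE) against the GC content of its longest transcript (horizontal axis, percent). Pcsk1 at 40.6% lies highest at 0.55 and Vgf at 64.1% lowest at -2.48, a value that is 0.01 without ctrl_vehicle 3.

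The other 35 genes of the pathway that were listed with the members were described in the same way. All 35 were tested and 0 passed in any of the 5 comparisons by edgeR. For AA14 in control-virus mice, 8 of 35 were lower and 3 higher at an unadjusted p under 0.05, where 15.8% and 8.03% of all genes were. Their median log2 fold change was -0.21, against -0.02 over all genes. The 2 of smallest p were Stx6, a syntaxin of the trans-Golgi and maturing granules (-1.48, SE 0.40, adjusted p = 0.141), and Ptprn2, a phosphatase-like protein of the granule membrane (-1.24, SE 0.36, adjusted p = 0.141). Stx6 was at 16.3 to 19.9 CPM in the Malat1-rich libraries and 42.4 to 64.3 CPM in the others. Pcsk2 had a value of -0.04 (SE 0.40), and was at 611, 340.2 and 283 CPM in ctrl_vehicle and 491, 450.2 and 255 CPM in ctrl_AA14.

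In the remaining comparisons the counts at that level were 0 for AA14 in cre-virus mice and for cre under vehicle, 2 lower for the difference of the AA14 effects (4.86% of all genes), and 6 higher for cre under AA14 (7.08% of all genes). The smallest p-values belonged to Vamp4 (0.25) and Arfip1 (0.22) for AA14 in cre-virus mice, and to Ccdc186 (0.23) and Atp6ap2 (0.20) for cre under vehicle. Stx6 (-1.25) and Ptprn2 (-1.12) led in the difference of the AA14 effects. Under AA14 they belonged to Ptprn2 (1.02) and to Insm1 (1.31), a zinc-finger regulator of neuroendocrine genes, where each value is a log2 fold change. Insm1 was at 20.6 to 25.2 CPM in the Malat1-rich libraries and 44.3 to 87.4 CPM in the others, so that it split by Malat1 as Pcsk1n did. In all, 10 of the 35 (28.6%) were lower and 3 (8.57%) higher in the Malat1-rich libraries without overlap, against 13.1% and 9.23% of all genes.

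The gene whose level followed each member most closely was sought over 12 libraries by Pearson's r of log2(CPM + 0.5), among 10201 genes that average 10 CPM or more and are not named as predicted or clone-based genes. For Pcsk1n it was Eef2, a translation elongation factor (Pearson's r = 0.995), which ran from 1242 to 3923 CPM. For Cpe it was Ppp1r2 (r = 0.986), for Pcsk1 Loxhd1 (r = 0.980), for Chga Tnfrsf1a (r = 0.977) and for Pam Stt3b (r = 0.964). For Scg2 and Scg5 it was a ribosomal protein gene, Rpl4 (r = 0.967) and Rps23 (r = 0.947). For Vgf it was Clic4 (r = 0.957), for Chgb Gng4 (r = 0.953) and for Scg3 Hif1a (r = 0.946). The libraries form the 2 sets above and r was not computed within them. No member was the closest match of another.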

How the data were processed

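Counts per gene came from 12 pituitary libraries, 3 in each of 4 groups taken from the sample titles. The authors deposited whole-number counts for every library. TRIzol RNA went into NEBNext Ultra libraries, read as 150 bp pairs and mapped with HISAT2 2.0.0, per the labels' protocols. The submitters' processing notes also name build GRCm38, DESeq 1.8.3 and featureCounts 1.5.0-p3. The annotation release was not given in the sources used here, nor was the strand setting. IDs were matched to symbols for 55154 of 55421 genes, with lengths, positions and GC content from GENCODE M21 (GRCm38).

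Genes were filtered with filterByExpr in edgeR 4.0.16, scaled by TMM and tested with quasi-likelihood F tests with a mean for each group, all 12 libraries sharing the fit, and p-values were adjusted by Benjamini-Hochberg across 22630 genes (threshold 0.05). Standard errors were taken as |log2 fold change| / sqrt(F). The 3 ratios were tested by exact permutation of 6 against 6 libraries, whose smallest possible p is 0.00216. On simulated counts for AA14 in control-virus mice (22005 genes) the test recovered 17.9% of genes changed 2-fold, 79.1% changed 4-fold and 80.3% changed 8-fold, with 4 false calls.

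All 10 members, and of the other pathway genes Pcsk2, any gene past the threshold and the 2 of smallest p in each comparison, are named. Malat1, Nefl and Fos were named after their values were seen. The members and lists were chosen with earlier results of these data known. Alternatives were other size factors and filters, DESeq2 1.42.0, limma-voom (limma 3.58.1) with quality weights, the compared groups alone, a replicate block, single libraries left out and the libraries rich in myelin genes left out. A term for Malat1 above 1000 CPM, GC-corrected offsets and leaving out the 5 Malat1-rich libraries were added after seeing the data. RefSeq promoter windows were read in build GRCm38.p6.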

Additional observations from a re-analysis of the deposited data

How the results depend on the processing

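No member passed in edgeR under any other scaling, filter, left-out library or replicate block. For AA14 in control-virus mice the number past the threshold was 1 in DESeq2, 3 in limma-voom with quality weights and 3 with only the groups compared. The numbers of all genes called in that comparison were 1 in edgeR, 2299 in DESeq2, 3409 in limma-voom and 2266 with only the groups compared. DESeq2 gave Vgf no adjusted p in any of the 5 comparisons. Over the 50 log2 fold changes of the members and all alternatives, 86 of 970 values had the opposite sign, in 35 of the 50.

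With the Malat1 split as a term, values for AA14 in control-virus mice turned for Chga (0.28), Chgb (0.27), Scg3 (0.24), Vgf (0.24), Pcsk1n (0.23), Pcsk1 (-0.13) and Cpe (0.0042). That term turned 5 of 10 members in the difference of the AA14 effects, among them Chga (0.21) and Pcsk1n (0.29), 3 for cre under AA14, among them Pcsk1n (-0.0020), 5 for cre under vehicle and 0 for AA14 in cre-virus mice. With GC-corrected offsets Chgb was at 0.0037 for AA14 in control-virus mice and Pcsk1n at 0.038 for AA14 in cre-virus mice. Scg5 in control-virus mice turned in limma-voom (-0.10), with no low-count filter (-0.0057) and without the libraries richest in oligodendrocyte markers (-0.15). Pcsk1n in cre-virus mice turned with upper quartile factors (0.028), a filter of at least 1 CPM in 3 libraries (0.00083), without the libraries richest in oligodendrocyte markers (0.12) and without the Malat1-rich libraries (0.034). Vgf turned in limma-voom for AA14 in cre-virus mice (-0.19) and for cre under vehicle (0.67), and there also without the libraries richest in oligodendrocyte markers (0.40). The cause was not tested for these.

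With 1 library left out at a time, Scg5 in control-virus mice ranged from -0.17 to 0.13 and Vgf from -2.98 to 0.013. In cre-virus mice Vgf ranged from -1.70 to 2.20 and Pcsk1n from -0.63 to 0.38, and for cre under vehicle Vgf ranged from -2.12 to 1.57. The log2 ratio of Pcsk1n to Pcsk1 ranged from -1.54 to -0.96, that of Scg5 to Pcsk2 from -0.0038 to 0.23 and that of Chga to Chgb from -0.47 to -0.21. Without the Malat1-rich libraries (2 AA14 and 5 vehicle libraries, exact permutation) the Pcsk1n to Pcsk1 value was -0.04, the Scg5 to Pcsk2 value -0.15 and the Chga to Chgb value 0.18, and among cre-virus libraries alone the latter was 0.00047.

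The replicate numbers are not said to mark shared animals, and libraries with the same number deviated together with r above 0.1 in 5 of 18 pairs. Between groups the median r was -0.087 for pairs with the same number and 0.072 for pairs with different numbers. With a replicate block 0 members passed in each comparison, and the ratio of Pcsk1n to Pcsk1 differed by -1.15 with an exact permutation p of 0.102. The median SE of a log2 fold change in control-virus mice was 0.26 among genes at 1 CPM or more, so changes of the size seen in Chgb or Scg3 were not detectable with 3 libraries a group.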
